A study of Rattus norvegicus with 4 samples.

Results

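The genes of the cytosolic ribosome and of the translation factors that work with it were compared between 2 layers of the rat crista ampullaris, the sensory epithelium of the semicircular canals. Members were all gene probes whose current rat symbol is that of a cytosolic ribosomal protein (Rpl, Rplp or Rps with a number, or Rpsa), an initiation factor (Eif1 to Eif6) or an elongation factor (Eef1 or Eef2). By their symbols, genes that act on factors also fell in. Among them were the eIF2 kinases, the inhibitors Eif4ebp1 and Eif4ebp2, the kinase Eef2k and the methyltransferases Eef1akmt1, Eef1akmt2 and Eef2kmt. All of these are counted with the translation factors. The rule used no measured value. It found 135 probes of 105 genes among 33849 gene probes, of which 16923 had 1 named gene, 12330 genes in all. There were 54 ribosomal protein genes on 65 probes and 51 translation factor genes on 70 probes.

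The supporting cell layer (2 arrays) held the supporting cell bodies that rest on the basal lamina, taken in a second pass of laser capture. The hair cell layer (2 arrays) was captured first and held hair cells together with the parts of supporting cells that lie between them, and calyceal nerve endings surround these hair cells, so it was not a pure population. They are called the supporting layer and the hair layer from here on. Both layers came from rats whose strain, age and treatment the labels do not give. Poly(A)+ RNA was amplified linearly and read on single-colour CodeLink arrays of the whole rat genome.

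Ribosomal proteins build the large (Rpl) and small (Rps) subunits and are needed in equal numbers in each ribosome. Initiation factors bring the messenger, the initiator tRNA and the small subunit together, and several of them are control points: eIF4E binds the cap and is held back by the 4E-BP proteins, while eIF2 is switched off by kinases that sense different stresses. Elongation factors then deliver aminoacyl-tRNAs and move the ribosome along the messenger. In the inner ear, aminoglycoside antibiotics, which act on ribosomes of bacteria, are toxic to hair cells.

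Few ribosomal proteins differed between the layers and their changes were small, whereas translation factors were called about as often as other genes. Values are raw intensities, quantile-normalised between the 4 arrays, and a change is the log2 value of the supporting layer minus that of the hair layer. A probe was tested where it was above background, by its scanner flag, on 2 or more arrays of any layer, and a gene was called at an adjusted p under 0.05 by limma at its brightest probe. Across all 7771 tested genes, 65.4% were called, 28.2% higher in the supporting layer and 37.2% higher in the hair layer. Of 40 tested ribosomal protein genes 6 were called, 3 in each direction (15.0%). Of 42 tested translation factor genes 26 were called, 9 higher in the supporting layer and 17 higher in the hair layer (61.9%), a share near that of all genes. The ribosomal protein share depends on the scaling: it was 52.5% with no scaling between arrays (69.1% of all genes) and 32.5% with cyclic loess, a scaling chosen after seeing the data (66.2% of all genes).

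The interquartile range of the ribosomal protein changes was 0.33 on the log2 scale, against 1.17 for the translation factors and 1.47 for all tested genes. The median change was -0.05 for ribosomal proteins, -0.24 for translation factors and -0.10 for all tested genes. These shifts in the median rest on the scaling of the arrays. The spread of the ribosomal proteins was 0.33 with quantile normalisation and 0.43 with cyclic loess. It was also 0.43 with median scaling, with no scaling and with the scanner's values, which are divided by the array median. These differ only by a constant per array, so their spreads could not differ from each other. Whether replicate arrays stem from different rats is not in the labels, so p-values reflect only the spread between these 4 arrays, which may be technical. In a captured layer, fewer cells of a type and less RNA per cell cannot be told apart.

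**Figure D1:**
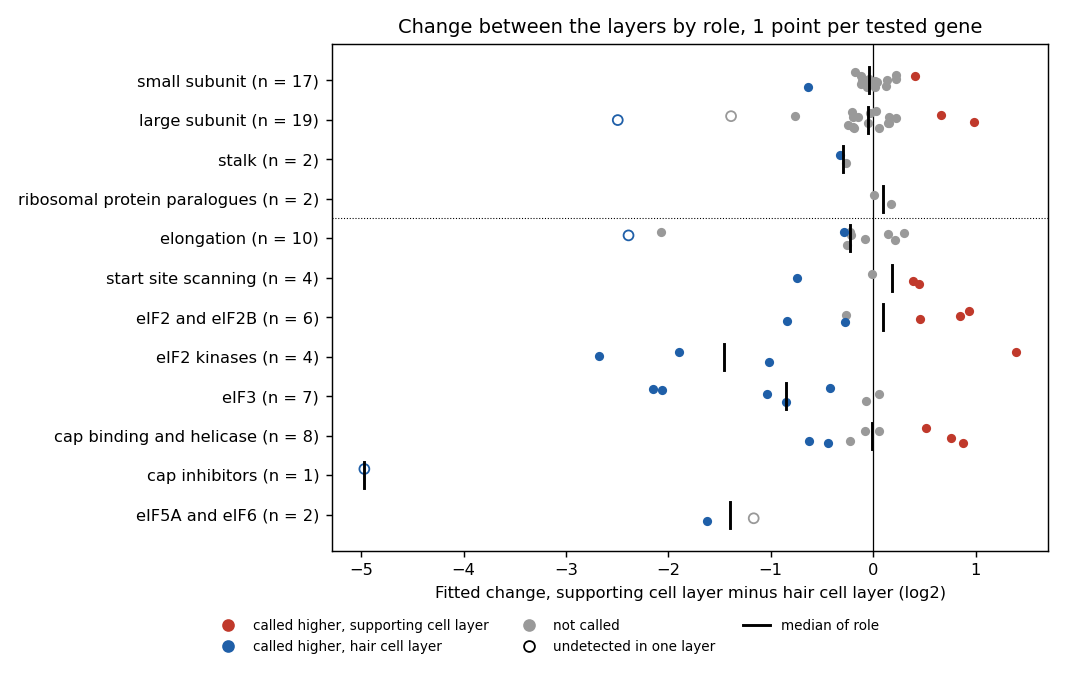
Fitted change (supporting layer minus hair layer, log2) of each tested member, grouped by role, with ribosomal proteins above the dotted line. Red points were called higher in the supporting layer, blue points higher in the hair layer, grey points were not called, open points were not above background in one layer, and black bars are medians of a role. Ribosomal proteins crowd around 0, while the eIF2 kinases span -2.68 to 1.39.

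The other members were not tested: 14 ribosomal protein genes had no probe above background on any array, 5 translation factor genes likewise, and 4 more translation factor genes were detected on 1 array only. Among the undetected ribosomal proteins were Rps3, a small-subunit protein at the messenger entry channel, Rps4x, Rpl8 and the stalk protein Rplp2, all core parts of the ribosome. For such genes the probe gave no usable signal. A gene detected in one layer only had to differ to pass, so the counts were also taken over genes detected on all 4 arrays. There 5 of 35 ribosomal proteins and 24 of 37 translation factors were called, against 65.6% of 5752 genes.

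Of gene probes, 39.8% and 39.7% were above background in the supporting layer, against 48.8% and 45.6% in the hair layer, and the median raw intensity of gene probes was 12.1 and 11.9 in the supporting layer and 25.1 and 16.9 in the hair layer. Replicates correlated at r = 0.994 in the supporting layer and 0.993 in the hair layer over 11059 probes, which are not independent. The ratio of 3′ to 5′ control probes for Pgk1 was 4.85 and 4.50 in the supporting layer, against 12.02 and 13.4 in the hair layer. For Hk1 it was 9.43 and 9.05, against 79.8 and 104 in the hair layer, while for Hprt (16.6 and 18.2, against 16.0 and 25.8) and Pc (2.22 and 3.42, against 1.97 and 2.26) the layers overlapped. Of 15 tested hair cell markers 13 were called higher in the hair layer. Their raw signals summed to 4442 and 3946 in the supporting layer, where 4 were undetected, against 15748 and 14929 in the hair layer. Of 18 supporting cell markers 7 were called higher in the supporting layer and 8 in the hair layer, so this list did not mark one layer. Of 9 endothelial and pericyte markers 7 were called higher in the supporting layer and 1 in the hair layer. The raw signals of the 8 with a value on every array (Cldn5 lacks one on supporting layer replicate 2) summed to 1218 and 1168 in the supporting layer, against 678 and 656 in the hair layer. Other lists were read the same way: in the supporting and the hair layer 3 and 1 of 6 connective tissue markers were called higher, 3 and 2 of 5 for neurons, 1 and 1 of 4 for Schwann cells, 2 and 3 of 5 for immune cells and 1 and 0 of 3 for blood. The part of RNA quality and of other cells in the results that follow was not tested.

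The 3 brightest members were ribosomal proteins, and none of them was called with quantile normalisation. Rps3a, a small-subunit protein, had 17580 and 15007 on the supporting layer arrays (replicates 1 and 2, as in all pairs that follow), against 17510 and 16009 on the hair layer arrays. Its arrays overlapped, and the change of -0.04 ± 0.12 (SE, 2 arrays per layer, as in all errors that follow) did not pass (limma, adjusted p = 0.765). Rpl9, of the large subunit, had 13256 and 12593 in the supporting layer and 14307 and 15408 in the hair layer. Both hair layer arrays were above both of the other layer, yet the change of -0.20 ± 0.08 did not pass (limma, adjusted p = 0.115). Rps6, the small-subunit protein that S6 kinase phosphorylates, had 11427 and 11771 in the supporting layer, against 12544 and 12613 in the hair layer, a change of -0.12 ± 0.07 (limma, adjusted p = 0.215).

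Of the 778 tested genes with a mean signal above 1008, 54.9% were called, 25.8% higher in the supporting layer and 29.0% higher in the hair layer. Among them were 20 ribosomal proteins, of which 0 were called by limma (0 at an unadjusted p under 0.05), with a median change of -0.015, and 8 translation factors, of which 3 were called higher in the supporting layer and 1 in the hair layer. Under cyclic loess Rps3a (0.51) and Rps6 (0.32) were both called higher in the supporting layer. In that fit 13 of 40 ribosomal proteins were called, 9 higher in the supporting layer and 4 in the hair layer. The count of 0 calls among the bright ribosomal proteins therefore holds with quantile normalisation and not with cyclic loess.

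**Figure D2:**
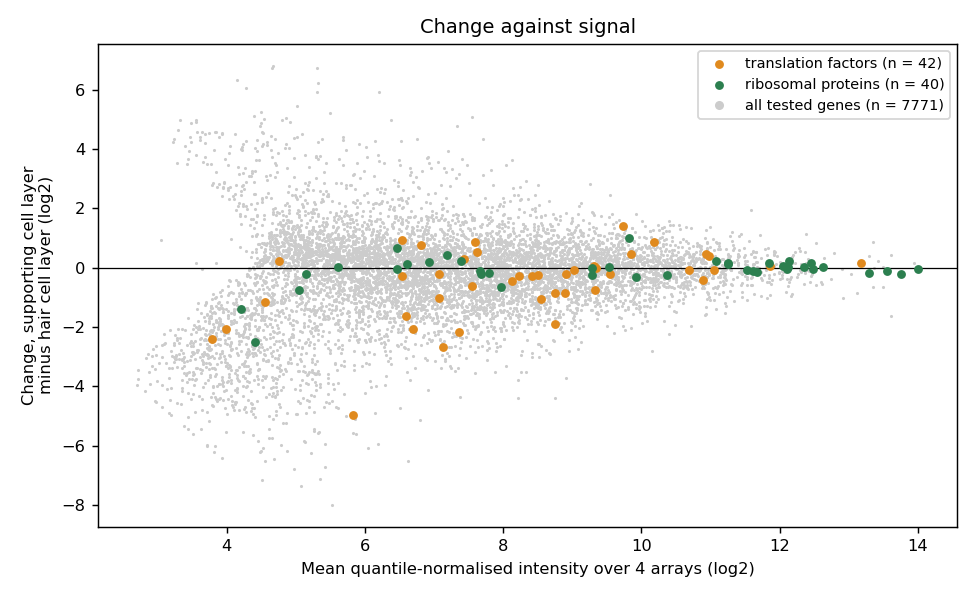
Change between the layers (supporting layer minus hair layer, log2) against mean quantile-normalised intensity over the 4 arrays (log2), 1 point per tested gene. The 40 ribosomal proteins (green) reach the brightest signals and mostly lie near 0, with the dim Rpl28 at -2.49 and the brighter Rpl31 at 0.99 among the exceptions, and the 42 translation factors (orange) scatter like the 7771 tested genes (grey), down to -4.97.

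Of 17 tested small-subunit proteins 1 was called in each direction (5.88%), against 28.2% of all tested genes toward the supporting layer and 37.2% toward the hair layer. Their changes ran from -0.64 to 0.41. Rps24, linked in humans to Diamond-Blackfan anaemia, had 174 and 162 in the supporting layer and 127 and 126 in the hair layer, a change of 0.41 ± 0.08 (limma, adjusted p = 0.0205). Rps18 had 226 and 179 in the supporting layer, against 303 and 323 in the hair layer, a change of -0.64 ± 0.15 (limma, adjusted p = 0.0331). In neither gene did the layers overlap on this scale, but with no scaling Rps24 read higher on both hair layer arrays (137 and 122 in the supporting layer, against 167 and 143). Rps19, another anaemia gene, had 6362 in supporting layer replicate 1, while its spot on replicate 2 failed in manufacture, against 6456 and 6151 in the hair layer, and its change of 0.01 ± 0.11, fitted on 3 arrays, did not pass (limma, adjusted p = 0.917). Rpsa, which also serves as a laminin receptor, had a difference of -0.12 ± 0.08 that did not pass (limma, adjusted p = 0.253), although a second, dimmer probe of it was called higher in the supporting layer with a change of 0.37. Rps27 had a difference of 0.04 ± 0.14, within its error, and its paralogue Rps27l was not detected.

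Of 19 tested large-subunit proteins 2 (10.5%) were called higher in the supporting layer and 1 (5.26%) higher in the hair layer. Of all tested genes 28.2% and 37.2% were called in these directions. Rpl31, at the rim of the exit tunnel, had 1309 and 1238 in the supporting layer, against 636 and 647 in the hair layer, with no overlap. Its change of 0.99 ± 0.08 (limma, adjusted p = 0.00300) was the largest toward the supporting layer among ribosomal proteins. It was also the 1 ribosomal protein, among 35 detected on all arrays, whose raw intensity was higher on both supporting layer arrays, with 1026 and 916 against 842 and 756 in the hair layer. Rpl29 had 109.9 and 112 in the supporting layer and 72.7 and 67.4 in the hair layer, a change of 0.66 ± 0.08 (limma, adjusted p = 0.00737), and its raw intensities overlapped. Rpl28 was not above background on either supporting layer array (6.42 and 12.4), against 43.4 and 58.3 in the hair layer, so only a limit can be given: the hair layer was at least 1.83-fold higher (limma, adjusted p = 0.0143).

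Other well known large-subunit proteins did not pass. Rpl11, which binds Mdm2 and so links the ribosome to p53, had 2582 and 2549 in the supporting layer and 2427 and 2192 in the hair layer, a change of 0.15 ± 0.09 (limma, adjusted p = 0.205). Rpl13a, part of an interferon-responsive translational repressor in human cells, overlapped between the layers, with a difference of -0.19 ± 0.19 (limma, adjusted p = 0.419). Rpl10, which joins the large subunit late in its assembly, had a difference of -0.15 ± 0.08, Rpl3 of 0.06 ± 0.11 and Rpl39 of 0.16 ± 0.09. Rpl10a was not above background in the supporting layer and did not pass (limma, adjusted p = 0.0671). Rpl6 gave a change of -0.24 ± 0.12 at its brightest probe, which did not pass, and 1.51 at a second probe, which was called higher in the supporting layer. Its direction is therefore uncertain.

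The stalk recruits the factors that hydrolyse GTP on the ribosome. Rplp1 had 857 and 883 in the supporting layer and 1069 and 1103 in the hair layer, a change of -0.32 ± 0.07 (limma, adjusted p = 0.0290). Rplp0, the stalk base and a common reference gene in RNA assays, had 568 and 573 in the supporting layer, against 723 and 647 in the hair layer, a change of -0.26 ± 0.09 that did not pass (limma, adjusted p = 0.0794). Both stalk proteins were without overlap between the layers, but a second Rplp1 probe was not called, with a change of -0.19. Of the paralogues and copies, Rpl17-ps16, annotated as a pseudogene, had a difference of 0.01 ± 0.08, and Rpl3l, the muscle form of Rpl3, was not detected. The ribosomal protein calls, like those of all genes, rest on few arrays, and leaving out 1 array leaves 1 array in its layer. The median change of ribosomal proteins was -0.04 and -0.06 without supporting layer replicate 1 or 2 (-0.11 and -0.09 for all tested genes). It was -0.02 and -0.09 without hair layer replicate 1 or 2 (-0.12 and -0.11 for all tested genes).

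In raw intensity, with no scaling between arrays, 1 of the 35 ribosomal proteins detected on all arrays read higher on both supporting layer arrays and 31 read higher on both hair layer arrays. Of 37 translation factors, 3 (Eif2ak2, Eif2b1 and Eif2b4) were higher on both supporting layer arrays and 31 on both hair layer arrays. Among all 5752 such genes the shares were 14.5% and 73.4%. The median ratio of raw intensity, supporting layer over hair layer, was 0.726 for ribosomal proteins, 0.523 for translation factors and 0.637 for all genes. Over the 32778 probes with a value on every array, which leave out 2 member probes, ribosomal proteins took 2.43% and 2.45% of the total raw signal in the supporting layer, against 2.10% and 2.08% in the hair layer. Translation factors took 0.693% and 0.723% in the supporting layer, against 0.673% and 0.667% in the hair layer. This small difference leans on 1 bright probe, that of Eef1d. It gave 8314 of 29324.5 and 9528 of 29498.7 in the supporting layer, against 10288 of 45697 and 8710 of 39828.3 in the hair layer. The share therefore gives no direction for the class.

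**Figure D3:**
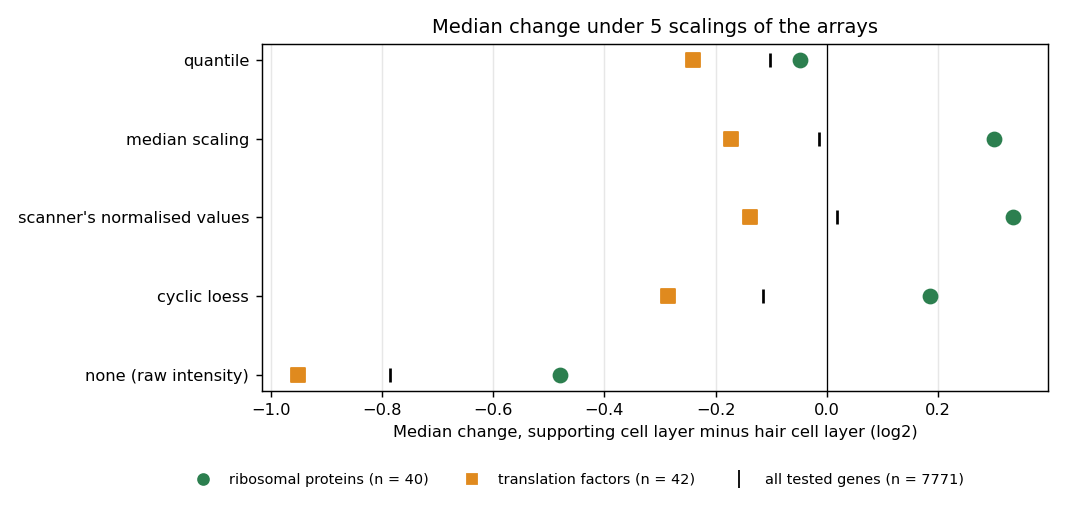
Median change (supporting layer minus hair layer, log2) of ribosomal proteins (green circles), translation factors (orange squares) and all tested genes (black ticks) under 5 ways of scaling the arrays. The ribosomal protein median lies above the translation factor median each time, but its sign turns, at -0.05 with quantile normalisation, 0.30 with median scaling and -0.48 with none. In the same order the median of all tested genes was -0.10, -0.015 and -0.79. The ribosomal protein median lay 0.055 above that of all genes with quantile normalisation and 0.30 to 0.31 above it with each other scaling. Median scaling, the scanner's values and no scaling differ only by a constant per array. Among them the gap between the ribosomal protein and translation factor medians could not differ, and the distance to all genes could hardly differ.

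Many messengers of the translation machinery start with a cytosine followed by a run of pyrimidines, the TOP motif, through which mTORC1 and Larp1 control their translation. RefSeq (build GRCr8) gave a start site for 88 of the 105 members. The search was for a C followed by at least 4 bases that are each C or T, on the gene's strand only. The base before that C was not looked at, so a longer run may begin upstream. Such a run could be read from the annotated first base in 17 of 43 ribosomal protein genes (39.5%) and 1 of 45 translation factor genes (2.22%). The same held for 463 of 19005 protein-coding genes (2.44%). From a base within 5 bases of that start it could be read in 58.1%, 26.7% and 16.4% of the same 3 sets. The lines below show 10 bases before and 20 from the annotated start, on the gene's strand, with the run as read in capitals. In Rps3a, Rpl9, Rplp1, Rps18 and Eef1a1 the pyrimidines also extend upstream of the capitals. Rps3a and Rpl9 are the brightest members, Rpl31, Rplp1 and Rps18 were called, Eef1a1 is a factor with a run, and Eif4e and Eif3a are called factors without one.
Rps3a (chr2:173827023-173827052, minus strand): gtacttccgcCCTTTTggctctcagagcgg
Rpl9 (chr14:43247580-43247609, plus strand): aggacgttctCTCTTTgccccatctactgc
Rpl31 (chr9:49143101-49143130, plus strand): atccctcgcgCCTTTCCTTTCCaacttggg
Rplp1 (chr8:71290853-71290882, minus strand): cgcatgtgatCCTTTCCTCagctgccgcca
Rps18 (chr20:4933735-4933764, plus strand): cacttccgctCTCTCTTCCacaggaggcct
Eef1a1 (chr8:88225050-88225079, minus strand): ttggacgttCTTTTTCgcaacgggtttgcc
Eif4e (chr2:229740743-229740772, plus strand): ttgtgcgatcagatcgatctaagatggcga
Eif3a (chr1:269919006-269919035, minus strand): atccggggctcgggcggcggcgctgccgcc

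Of 20 tested ribosomal proteins with a run within 5 bases 3 were called in each direction, with changes from -2.49 to 0.99 and a median of -0.05. Of 10 without one 0 were called by limma (0 at an unadjusted p under 0.05), with changes from -0.24 to 0.23 and a median of -0.02. Of 9 tested translation factors with a run 0 were called higher in the supporting layer by limma (1 at an unadjusted p under 0.05) and 4 in the hair layer, with a median change of -0.27. Of 29 without one 9 were called higher in the supporting layer and 11 in the hair layer, with a median of -0.22. Of all tested genes 28.2% were called higher in the supporting layer and 37.2% in the hair layer. The difference between genes with and without a run was not tested. A match is a description of the annotated start and no measurement of translation.

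The 4 eIF2 kinases stood on both sides. These kinases phosphorylate the alpha subunit of eIF2 and so slow initiation. Eif2ak2 encodes PKR, which double-stranded RNA activates. It had 1432 and 1338 in the supporting layer, against 532 and 522 in the hair layer, with no overlap. The change of 1.39 ± 0.08 (limma, adjusted p = 0.00193) was the largest toward the supporting layer among all members at their brightest probes, and the raw values, 1118 and 989 against 703 and 610.3 in the hair layer, gave the same direction. A second, dimmer probe of Eif2ak2 was also called higher in the supporting layer and was not above background in the hair layer. At that probe the supporting layer was at least 7.38-fold higher (limma, adjusted p = 0.00436).

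The other kinases were higher in the hair layer. Eif2ak4 encodes GCN2, which uncharged tRNA activates, and had 49.9 and 61.4 in the supporting layer, against 342 and 366 in the hair layer, a change of -2.68 ± 0.14 (limma, adjusted p = 0.00177). Eif2ak3 encodes PERK, the kinase of the endoplasmic reticulum, and had 223 on each supporting layer array, against 829 and 836 in the hair layer, a change of -1.90 ± 0.07 (limma, adjusted p = 0.00131). Eif2ak1 encodes HRI, the haem-regulated kinase, and had 95.8 and 93.6 in the supporting layer, against 195 and 189 in the hair layer, a change of -1.02 ± 0.07 (limma, adjusted p = 0.00263). In all 3 the layers were far apart and the replicates close.

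The promoter of Eif2ak2 holds letters of the type of the interferon-stimulated response element, a match of letters and not a shown binding site. The letters GAAANNGAAAC, searched on both strands after this sequence had been seen, occur in the 300-base promoter windows of 2 of 88 members (2.27%; Eif2a is the other) and of 159 of 19005 protein-coding genes (0.837%). In the line below, 20 bases before and 10 from the RefSeq start, the capitals mark the match, which is 16 to 6 bases before that start.
Eif2ak2 (chr6:21941134-21941163, plus strand): ccggGAAAACGAAACagagagaactagcct

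The substrate eIF2 and its exchange factor eIF2B, which reloads eIF2 with GTP, were split. Among 6 tested genes 3 (50%) were called higher in the supporting layer and 2 (33.3%) in the hair layer. Across all tested genes the shares were 28.2% and 37.2%. Eif2s1, the phosphorylated alpha subunit, had 1099.8 and 1072 in the supporting layer, against 831 and 755 in the hair layer, a change of 0.46 ± 0.09 (limma, adjusted p = 0.0204). Its raw values ran the other way, with 875 and 788 in the supporting layer and 1090 and 882 in the hair layer. Subunits of eIF2B went in both directions: Eif2b1 (alpha) had 130.4 and 126 in the supporting layer, against 65.9 and 68.4 in the hair layer, a change of 0.93 ± 0.07 (limma, adjusted p = 0.00317). Eif2b4 (delta) likewise had 273 and 247 in the supporting layer and 135 and 154 in the hair layer, a change of 0.85 ± 0.12 (limma, adjusted p = 0.00938). Eif2b2 (beta) went the other way, with 325 and 320.4 in the supporting layer, against 563 and 594 in the hair layer, a change of -0.84 ± 0.07 (limma, adjusted p = 0.00385). The layers did not overlap in these 3.

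For the eIF2 gamma subunit Eif2s3 the direction is uncertain: the brightest probe was called higher in the hair layer (-0.27 ± 0.07, limma, adjusted p = 0.0387) and a second probe higher in the supporting layer (0.62). The beta subunit Eif2s2 had a difference of -0.27 ± 0.08 and did not pass (limma, adjusted p = 0.0516). Eif2b5, the catalytic epsilon subunit of eIF2B, was detected on hair layer replicate 1 only and was not tested.

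The eIF3 complex is the scaffold on the small subunit that gathers the other initiation factors. Of its 7 tested subunits 0 were called higher in the supporting layer by limma (0 at an unadjusted p under 0.05) and 5 higher in the hair layer, against 28.2% and 37.2% of all tested genes. Eif3a, the largest subunit, had 83.1 and 73.1 in the supporting layer, against 391.9 and 307 in the hair layer, a change of -2.15 ± 0.17 (limma, adjusted p = 0.00314). Eif3d, which can itself bind the cap of some messengers, had 57.5 and 45.1 in the supporting layer, against 206 and 219 in the hair layer, a change of -2.06 ± 0.16 (limma, adjusted p = 0.00300). Both were separated by more than the spread of their replicates.

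Smaller changes were found in Eif3l (-1.04 ± 0.07), Eif3e (-0.85 ± 0.08) and Eif3h (-0.42 ± 0.07), all called higher in the hair layer. Eif3i, the brightest of the group, had 3760 and 3858 in the supporting layer and 3725 and 3587 in the hair layer, a change of 0.06 ± 0.07 that did not pass (limma, adjusted p = 0.502). The core subunit Eif3b had a difference of -0.07 ± 0.08 and overlapped between the layers. The fitted differences of the 7 subunits ranged from -2.15 to 0.06.

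At the cap, 3 of 8 tested genes (37.5%) were called higher in the supporting layer and 2 (25%) higher in the hair layer. For all tested genes these shares were 28.2% and 37.2%. Eif4e, the cap-binding protein, had 1519 and 1631 in the supporting layer, against 925 and 797 in the hair layer, a change of 0.87 ± 0.11 (limma, adjusted p = 0.00869). Its relative Eif4e2, a cap binder that mostly represses, had 149.6 and 143 in the supporting layer, against 87.8 and 85.1 in the hair layer, a change of 0.76 ± 0.07 (limma, adjusted p = 0.00470). In raw intensity the arrays of both genes overlapped, with 1174 and 1198 against 1207 and 933 for Eif4e.

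The helicase paralogues gave different calls. Eif4a1 had 237 and 234 in the supporting layer, against 166 and 163 in the hair layer, a change of 0.52 ± 0.07 (limma, adjusted p = 0.00889), and Eif4a2, with 2098 and 2027 in the supporting layer and 2207 and 2149 in the hair layer, had a difference of -0.08 ± 0.07 that did not pass (limma, adjusted p = 0.383). The difference between the paralogues was not tested, and in raw intensity Eif4a1 was higher in the hair layer. The scaffold Eif4g1 had 255 and 225 in the supporting layer and 329.9 and 322 in the hair layer, a change of -0.44 ± 0.10 (limma, adjusted p = 0.0278). Eif4g2, a scaffold without a binding site for eIF4E, had 156 and 145 in the supporting layer and 219.5 and 245 in the hair layer, a change of -0.62 ± 0.10 (limma, adjusted p = 0.0135). The helicase cofactor Eif4b had a difference of 0.05 ± 0.08 at its brightest probe and did not pass, while a second, dimmer probe was called higher in the supporting layer with a change of 1.14 (limma, adjusted p = 0.0125).

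At brightest probes, the widest change of any member was that of Eif4ebp2. This 4E-BP is the main form in neurons of the mouse and blocks eIF4E until mTORC1 phosphorylates it. It was not above background in the supporting layer (8.56 and 12.04), against 306 and 331 in the hair layer. The hair layer was at least 11.6-fold higher (limma, adjusted p = 0.00145), a limit set by the lowest detected signal of the supporting layer arrays (26.6 and 28.3). Its raw intensities were 7.42 and 9.62 in the supporting layer and 403 and 382 in the hair layer. Eif4ebp1, the form that insulin signalling is best known for, was above background only on hair layer replicate 2, with its spot on replicate 1 left out as contaminated, and was not tested.

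**Figure D4:**
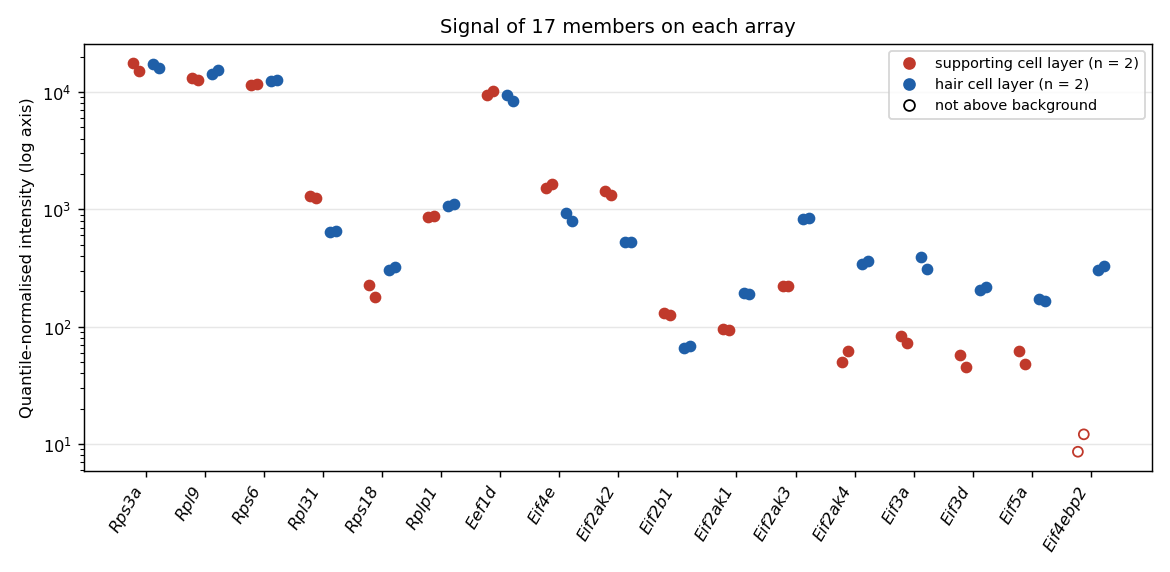
Quantile-normalised intensity (log axis) of 17 members on each array, with the supporting layer (red, 2 arrays) left of the hair layer (blue, 2 arrays) and open circles for spots not above background. Rps3a, Rpl9 and Rps6 were not called, Rpl31, Eif4e, Eif2ak2 and Eif2b1 are higher in the supporting layer, and Eif2ak3, Eif2ak4, Eif3a, Eif3d, Eif5a and Eif4ebp2 are higher in the hair layer.

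Under scanning and start site choice 4 tested genes were grouped by their symbols. Eif1ax and Eif5 (50%) were called higher in the supporting layer and Eif1ad (25%) in the hair layer. The shares over all tested genes were 28.2% and 37.2%. Eif1ax, which keeps the scanning ribosome open, had 2333 and 2272 in the supporting layer, against 1606 and 1766 in the hair layer, a change of 0.45 ± 0.09 (limma, adjusted p = 0.0206). Eif5, which triggers GTP hydrolysis by eIF2, changed by 0.39 ± 0.07 (limma, adjusted p = 0.0190). Both were higher in the hair layer in raw intensity. Eif1ad, a protein with an eIF1A domain, was higher in the hair layer, with 487 and 508 in the supporting layer against 826 and 841 in the hair layer, a change of -0.75 ± 0.07 (limma, adjusted p = 0.00463). Eif1b had a difference of -0.01 ± 0.09 and did not pass.

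Eif5a, the hypusinated factor that helps ribosomes through runs of proline, had 62.5 and 48.3 in the supporting layer, against 173 and 165 in the hair layer, a change of -1.62 ± 0.16 (limma, adjusted p = 0.00486). Its paralogue Eif5a2 was not above background in the supporting layer and did not pass (limma, adjusted p = 0.158).

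Of 10 tested genes of elongation 0 were called higher in the supporting layer by limma (1 at an unadjusted p under 0.05) and 2 (20%) higher in the hair layer. Over all tested genes the shares were 28.2% and 37.2%. Eef1a1, which carries aminoacyl-tRNA to the ribosome, had 674 and 709 in the supporting layer and 817 and 804 in the hair layer, a change of -0.23 ± 0.07 that did not pass (limma, adjusted p = 0.0648), and its second tested probe had a difference of 0.19. Its paralogue Eef1a2, the form of mature neurons and muscle, was not above background in the supporting layer (3.33 and 10.98), against 30.6 and 32.7 in the hair layer. By this limit the hair layer was at least 1.15-fold higher (limma, adjusted p = 0.0487). That call of Eef1a2 was lost with either other floor for dim signals, with no filter, with the replicate block and with cyclic loess. Eef1d, part of the exchange factor for eEF1A and the brightest of the group, had 9434 and 10137 in the supporting layer and 9370 and 8320.0 in the hair layer, a change of 0.15 ± 0.10 (limma, adjusted p = 0.275).

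Eef1g, another part of that exchange factor, was called with a change of -0.29 ± 0.08 (limma, adjusted p = 0.0418). The translocase Eef2 had 297 and 374 in the supporting layer, against 419.5 and 375 in the hair layer, a change of -0.25 ± 0.16 (limma, adjusted p = 0.234). Eef2k, the kinase that inhibits it, was above background on 1 supporting layer array and did not pass (limma, adjusted p = 0.349).

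The calls of 7 members held under each of the 16 alternative settings: Eif4ebp2, Eif2ak2, Eif2ak3, Eif2ak4, Eif3a, Eif3d and Eif5a. Of these, Eif4ebp2 has no value in the fit that needs detection on all 4 arrays. Of the 32 called members, 14 lost the call with median scaling, 21 with the scanner's values and 19 with no filter on dim probes. Rpl31 and Eif2b1 lost it with no scaling, and Eif2ak1, Eif3e and Eif3l with the scanner's values. Eif2b2 lost it with median scaling and the scanner's values, and Eif1ad with these and with no filter. Rpl29, Eif4e and Eif4e2 lost it with no scaling, the scanner's values and no filter. Leaving out 1 array lost others. Each of the 4 arrays, left out alone, lost the calls of Rplp1, Eif2s1, Eif2s3, Eif3h, Eef1g and Eif5. Leaving out either hair layer array lost those of Rps18, Rpl28, Rps24, Eif4a1, Eif4g1 and Eef1a2, while leaving out supporting layer replicate 1 also lost Rps24 and replicate 2 Eif4g1. Eif1ax was lost without hair layer replicate 1 or either supporting layer array, Eif2b4 without hair layer replicate 1 and Eif4g2 without hair layer replicate 2. The median change of translation factors was -0.20 and -0.25 without supporting layer replicate 1 or 2 (-0.11 and -0.09 for all tested genes). It was -0.24 without either hair layer array (-0.12 and -0.11 for all tested genes).

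For genes of translation outside the symbol rule, the counts stand against the 28.2% of all tested genes called higher in the supporting layer and the 37.2% called higher in the hair layer. Of 9 tested genes of mTORC1 and S6 kinase 0 were higher in the supporting layer by limma (0 at an unadjusted p under 0.05) and 3 (33.3%) in the hair layer, among them the mTORC1 inhibitor Akt1s1 (-0.68 ± 0.07), while its activator Rheb had a difference of -0.10 ± 0.08 and did not pass. Of 25 genes of ribosome assembly 10 (40.0%) were higher in the supporting layer and 8 (32.0%) in the hair layer. There the nucleolar proteins Ncl (0.46 ± 0.09) and Nop16 (1.12 ± 0.09) were higher in the supporting layer and Wdr12, which acts in maturation of the large subunit, in the hair layer (-1.78 ± 0.09). Of 17 aminoacyl-tRNA synthetases 3 (17.6%) were higher in the supporting layer and 9 (52.9%) in the hair layer, with Farsb (1.57 ± 0.08) and Nars1 (-0.47 ± 0.09) as examples.

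Among 13 genes of other ribosome parts, termination, poly(A) binding and recycling, 6 (46.2%) were higher in the supporting layer and 3 (23.1%) in the hair layer, beside the same 28.2% and 37.2% of all tested genes. Tpt1, the brightest, had a difference of -0.05 ± 0.08 and did not pass. Nacad changed by 2.30 ± 0.09 and Btf3, part of the nascent polypeptide-associated complex, by -1.12 ± 0.07. Of 9 genes of the integrated stress response, which eIF2 phosphorylation turns on, 1 (11.1%) was higher in the supporting layer (Asns, asparagine synthetase, 0.86 ± 0.10) and 3 (33.3%) in the hair layer, among them Chac1 (-1.53 ± 0.13), which degrades glutathione.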

How the data were processed

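Arrays were read with CodeLink Expression Analysis 4.0.0.23520, per the file headers. The authors deposited a raw intensity per spot, corrected for local background, with a quality flag, and an intensity divided by the array's median. The series table was not used, since 1 column was shifted by 2 rows against its scanner file. Probes were named from the platform annotation with symbols updated to RefSeq, and 16 probes that match several genes, at least 1 of them fitting the rule, were not named. The accession of scanner file and platform annotation was the same for 32 of 65 ribosomal protein probes and 54 of 70 translation factor probes. Among called ribosomal proteins it was the same for Rps24 but not for Rpl28, Rpl29, Rpl31, Rps18 and Rplp1. For the bright Rps3a, Rpl9 and Rps6 it was not the same either.

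Spots flagged contaminated, irregular or failed were left out (151 and 241 in the supporting layer, 637 and 69 in the hair layer). Intensities were quantile-normalised, floored at 0.1 of the median and log2-transformed (R 4.3.3). The 16483 probes detected on at least 2 of 4 arrays were fitted with limma 3.58.1 (eBayes, no block, two-sided, Benjamini-Hochberg over all tested probes). The prior had 1.31 degrees of freedom, and the number of arrays limits the precision. An exact permutation test of 2 arrays against 2 cannot go below p = 0.333 and was not used. A gene takes its brightest probe. Levels of different probes are not comparable.

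Members and lists were chosen with earlier results of these data known. The genes named were the 10 largest called changes in each direction of each class with no overlap, the brightest and the largest called of each role, paralogue pairs, well known members, members with opposite calls and the 3 brightest. Eif3h, Eif3b, Eef1g, Eif2s2, Eif4b, Eif1b, Rpl6 and Rpl10a, and undetected members given as examples, were added after their values were seen.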

Additional observations from a re-analysis of the deposited data

How the results depend on the processing

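The alternatives were other scalings, filters, floors and priors, the replicate block, leaving out each array and, chosen after seeing the data, cyclic loess. Of 32 called members named, 26 kept their direction throughout and 7 their call. Ribosomal protein calls (6) became 21 with no normalisation (0 higher in the supporting layer, 21 higher in the hair layer), 3 with the scanner's normalised values (1 and 2), 1 with no filter (1 and 0) and 13 with cyclic loess (9 and 4), and 2 to 7 without 1 array. Translation factor calls (26) became 17 with median scaling (5 and 12), 10 with the scanner's values (2 and 8) and 12 with no filter (2 and 10), and 16 to 22 without 1 array. Calls over all probes (11112) became 6871 with the scanner's values, 6654 with no filter, and 7228 to 10009 without 1 array.

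Under median scaling, no normalisation, the scanner's values and cyclic loess the ribosomal protein median was 0.30, -0.48, 0.33 and 0.19, that of translation factors -0.17, -0.95, -0.14 and -0.29, that of all genes -0.015, -0.79, 0.019 and -0.11, and the difference of the first from the second, 0.19 with quantile normalisation, 0.47 each time. Median scaling, no normalisation and the scanner's values differ only by a constant per array, so that difference could not vary among them. The ribosomal protein median was -0.026 over probes detected on all arrays and -0.0076 as a mean over probes, and that of translation factors -0.27 with no filter. Without 1 array they ranged from -0.087 to -0.018 and from -0.25 to -0.20, and the difference from 0.155 to 0.226.

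Among named members called in at least 1 of the fits compared, the change reversed with no normalisation in Eif1ax (-0.19), Eif2s1 (-0.24), Eif3i (-0.48), Eif4a1 (-0.17), Eif4b (-0.66), Eif5 (-0.25), Rpl17-ps16 (-0.72) and Rps24 (-0.25), with cyclic loess in Rps3a (0.51) and Rps6 (0.32), and as a mean over probes in Eif2s3 (0.17) and Rpl6 (0.63). With no normalisation 6 more turned sign with no call in either fit (Eef1d, Rpl3, Rpl11, Rpl39, Rps19 and Rps27). The cause of these shifts was not tested.

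The layers share replicate numbers, but nothing says that they pair arrays, and deviations of same-numbered arrays correlated at -0.0282. With the replicate block, 4 ribosomal proteins, 17 translation factors (6 and 11) and 8701 probes were called. Signal over background limits dim members: fold limits rest on the lowest detected signal, and 19 probes of each class were undetected throughout.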
